A study of Mus musculus with 8 samples.

Results

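Immunoglobulin genes are assembled from V, D, J and C gene segments in 3 loci: the heavy chain locus Igh on chromosome 12, the κ light chain locus Igk on chromosome 6 and the λ light chain locus Igl on chromosome 16. Accessible chromatin in these loci was described here in B3, a line of mouse pre-B cells. The loci were taken as the spans of the 389 GENCODE vM21 genes whose symbols start with Ighv, Ighd, Ighj, Ighm, Igkv, Igkj, Igkc, Iglv, Iglj or Iglc (211 for Igh, 166 for Igk and 12 for Igl), with 20 kb on either side. A peak belonged to a locus if its summit lay there. Of the 767727 peaks in 8 lists, 3115 met the rule. Overlapping peaks of the lists were merged into 174718 consensus regions, of which 620 lay in the loci (302 in Igh, 295 in Igk and 23 in Igl). All positions are on GRCm38.

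The B3 cells of all 8 libraries carried Ikaros-ERt2, a fusion of the transcription factor Ikaros (IKZF1) with a hormone-binding domain that keeps it out of the nucleus until 4-hydroxytamoxifen (4-OHT) is added. The construct came from an MSCV retrovirus with an IRES-GFP cassette, and GFP-positive cells were sorted. ATAC-seq, in which the Tn5 transposase cuts open chromatin, was run on untreated cells (0 h) and after 30 min, 1 h and 2 h in 4-OHT at 500 nM, and each time had 2 libraries. No library had 4-OHT without the fusion or solvent alone, so effects of Ikaros, 4-OHT and solvent cannot be told apart. The labels do not say that the 2 replicates came from separate cultures, so p-values measure the spread between these libraries only.

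In developing B cells, the RAG recombinase joins a V segment to D and J segments in Igh and then a V to a J segment in Igk or Igl, by cutting at recombination signal sequences made of a heptamer, a spacer and a nonamer. Each V gene has its own promoter, which carries an octamer bound by the OCT proteins, and each locus has enhancers in or downstream of its J to C part, such as Eμ in Igh and the intronic and 3′ κ enhancers in Igk. The insulator protein CTCF binds at many sites among the heavy chain V genes and takes part in the folding of the locus. Ikaros is known to act in pre-B cells on genes of the pre-B cell receptor, on the switch from proliferation to light chain rearrangement and on the heavy chain locus.

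The following sequences carry the features by which the regions below are described, and each is given on the plus strand of GRCm38. In the first pair, from the J to C intervals in which the intronic enhancers lie, the capitals mark the octamer ATGCAAAT in Igh and the κB word GGACTTTCC in Igk.
Igh J to C interval, chr12:113427420-113427619: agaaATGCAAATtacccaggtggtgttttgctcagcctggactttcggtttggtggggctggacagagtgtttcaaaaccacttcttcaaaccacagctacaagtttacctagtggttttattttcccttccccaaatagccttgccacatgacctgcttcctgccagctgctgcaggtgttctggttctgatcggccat
Igk J to C interval, chr6:70725702-70725901: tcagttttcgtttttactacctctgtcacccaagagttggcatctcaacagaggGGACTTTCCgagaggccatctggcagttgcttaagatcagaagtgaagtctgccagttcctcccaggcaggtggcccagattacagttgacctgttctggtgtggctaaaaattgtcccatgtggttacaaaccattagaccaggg

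The next group lies just upstream of Igk V genes whose regions were gained or rose after 4-OHT, and the capitals again mark the octamer.
Igkv4-80, chr6:69017140-69017227: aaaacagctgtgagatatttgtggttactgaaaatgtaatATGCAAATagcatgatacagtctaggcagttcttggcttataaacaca
Igkv4-79, chr6:69043565-69043652: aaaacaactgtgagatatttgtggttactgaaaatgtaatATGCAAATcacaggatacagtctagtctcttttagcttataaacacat
Igkv4-78, chr6:69060284-69060371: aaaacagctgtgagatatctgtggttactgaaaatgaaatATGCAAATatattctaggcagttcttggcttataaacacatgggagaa
Igkv19-93, chr6:68736815-68736902: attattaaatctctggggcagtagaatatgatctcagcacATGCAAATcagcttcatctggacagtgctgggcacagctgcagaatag

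A recombination signal at the 3′ end of Igkv4-73, whose region also rose, reads on the minus strand with a spacer of 12 bp. The capitals mark the nonamer and then the heptamer.
Igkv4-73, chr6:69197540-69197597: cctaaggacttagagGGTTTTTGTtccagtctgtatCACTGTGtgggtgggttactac

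In Igh, 4 regions upstream of V genes of the Ighv1 family held a CTCF word (capitals, minus strand) and rose after 4-OHT. Over the 62 bases shown, 50 were the same in all 4.
Ighv1-55, chr12:115209300-115209361: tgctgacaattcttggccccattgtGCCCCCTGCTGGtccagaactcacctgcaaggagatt
Ighv1-64, chr12:115508758-115508819: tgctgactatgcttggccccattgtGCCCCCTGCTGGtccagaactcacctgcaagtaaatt
Ighv1-65, chr12:115533289-115533350: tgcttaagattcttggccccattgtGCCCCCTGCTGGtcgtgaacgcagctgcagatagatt
Ighv1-72, chr12:115759220-115759281: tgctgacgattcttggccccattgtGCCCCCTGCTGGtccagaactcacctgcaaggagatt

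The last group holds 3 regions that fell, with the core words of Ikaros binding, GGAA or GGGA on either strand, in capitals. The Igh region has 2 such words in this window of 200 bp, the Igk region 6 and the Igl region 4. By mean, all regions held 2.06 such words per 100 bp, and all regions lower at 2 h held 3.03. The 12 Igh regions lower at 2 h held 1.46 per 100 bp and the 2 Igk regions 3. Among regions with a peak in all 8 lists, the 128 of Igh held 1.4 per 100 bp and the 91 of Igk 1.55.
Igh near Ighv10-2, chr12:114493738-114493937: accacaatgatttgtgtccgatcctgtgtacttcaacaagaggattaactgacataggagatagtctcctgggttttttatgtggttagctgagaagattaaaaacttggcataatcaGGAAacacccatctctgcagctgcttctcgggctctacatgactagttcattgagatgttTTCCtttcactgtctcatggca
Igk near Igkv20-101-2, chr6:68471459-68471658: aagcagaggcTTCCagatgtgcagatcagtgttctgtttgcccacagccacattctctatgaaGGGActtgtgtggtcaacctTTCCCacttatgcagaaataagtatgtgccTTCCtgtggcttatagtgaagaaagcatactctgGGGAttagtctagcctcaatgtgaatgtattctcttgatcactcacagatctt
Igl interval, chr16:19172238-19172437: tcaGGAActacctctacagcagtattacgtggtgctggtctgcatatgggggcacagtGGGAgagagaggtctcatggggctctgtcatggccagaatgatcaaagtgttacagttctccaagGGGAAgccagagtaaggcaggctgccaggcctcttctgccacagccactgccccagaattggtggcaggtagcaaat

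Across the series the lists held 85903 to 103897 peaks. The background of the libraries ran from 0.26 to 0.405 fragments per base, with 11 to 14 fragments at the summit of the median peak. These fragment numbers, and all those below, were not counted from reads. They were worked back from each peak's fold and −log10 p under a Poisson model. Of 10 pre-B and B lineage genes checked within 1 kb of a start site, 7 had a peak in all 8 lists, among them Cd79a, Ebf1, Pax5 and Igll1. Of the T lineage list 1 of 6 genes (Lck) had a peak in all 8 lists, and of the 6 myeloid and 4 erythroid genes none did. Cd3g was listed in 7 libraries, at 21.2 in 0 h replicate 1 and at 88.5 and 89 after 2 h, and Lyz2 only at 0 h (91.6 and 87.9). One value of the sequence matters for every result here. Immunoglobulin V genes are near copies of each other, and the share of 31-base words in the 200 bp around a summit that occur once in the genome had a median of 63.8% in Igh, 66.5% in Igk and 96.5% in Igl, against 100% in the other regions of the same 3 chromosomes. Fragments of a region with few unique words may have been assigned to a near-identical copy or dropped, and the part this plays in any change below was not tested.

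The number of peaks in Igk was higher in every 4-OHT library than at 0 h, while that in Igh was not. In Igk the lists held 147 and 137 peaks at 0 h, 174 and 164 after 30 min, 205 and 183 after 1 h, and 207 and 200 after 2 h. The 0 h values lie below all 6 later values. In Igh the counts were 207 and 198 at 0 h, 208 and 196 after 30 min, 202 and 196 after 1 h, and 191 and 197 after 2 h, so the 30 min and 1 h counts overlap those of the untreated libraries, and both 2 h counts lie just below them. Igl, a short locus with few V genes in mice, had 9 and 11 peaks at 0 h, 13 and 11 after 30 min, 14 and 12 after 1 h, and 18 and 15 after 2 h.

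**Figure D1:**
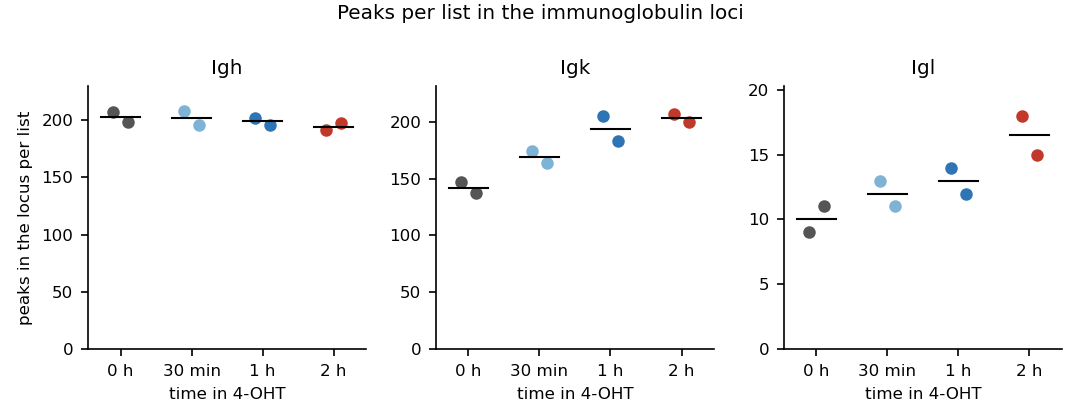
Peaks per list with summit in each immunoglobulin locus (y axis, count from 0) by time in 4-OHT (x axis); points are the 2 libraries of a time and bars their mean. Igk runs from 137 and 147 peaks at 0 h to 200 and 207 after 2 h, while Igh stays between 191 and 208.

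As a share of the list, which takes out its length, Igk held 0.158% ± 0.00212 (SD, n = 2) of the peaks at 0 h and 0.201% ± 0.00188 (SD, n = 2) at 2 h. By an exact permutation test (two-sided), p was 0.333 for 2 h against 0 h and 0.0714 for the 6 treated libraries against 0 h, each the smallest that these numbers of libraries allow, so a p under 0.05 could not be reached. The Igh share was 0.225% ± 0.00716 at 0 h and 0.191% ± 0.0106 at 2 h (SD, n = 2 each), with exact p of 0.333, and of 0.143 over all treated libraries. For Igl the shares were 0.0112% ± 0.00228 and 0.0162% ± 0.00154 (SD, n = 2 each; exact permutation p = 0.333). The rest of chromosome 6 gave shares of 5.13% and 5.15% in the untreated libraries and 5.03% and 5.05% after 2 h.

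The density of peaks in Igh and Igk lay within the range of their neighbours. Igh held 78.3 and 74.9 peaks per Mb at 0 h and Igk 45.8 and 42.7, beside 34.5 and 31.5 over the genome. The T cell receptor loci, built of V, D and J segments in the same way and joined in T cells, gave 31 and 28.3 peaks per Mb for Tcra and Tcrd, 15.6 and 22.6 for Tcrb and 75.6 and 81.5 for Tcrg at 0 h. At 2 h Igk reached 64.5 and 62.3 peaks per Mb, against 40.8 and 37.6 in Tcra and Tcrd, 22.6 and 19.8 in Tcrb and 75.6 and 81.5 in Tcrg. The 3 Mb on the 2 sides of Igh held 107 and 97.3, and 47.7 and 48, peaks per Mb at 0 h. Those on the 2 sides of Igk held 30 and 26, and 66.3 and 60.7, peaks per Mb at 0 h and 33.7 and 33.7, and 70.3 and 70, at 2 h.

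Within the loci nearly all peaks lay among the V genes. The V part of Igh held 182 to 199 of its peaks in each list and the V part of Igk 131 to 200. The Igh D genes, which span 97 kb, held no peak in any of the 8 lists, nor did the interval between the D and V genes (46.1 kb) or the J genes of Igh and Igk. Of the 31-base words, 51.9% were unique in the D part and 58.1% in the D to V interval, but 100% in the J genes of both loci.

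The heavy chain V genes nearest the D segments were almost without peaks. The lists do not show whether this DNA, or that of the D genes, is still present in B3, which was not tested. In the first of 6 equal bins of the V part, chr12:113572927-113979121, the lists held 1 to 3 peaks, against 48 to 53 in the last bin, chr12:115603900-116010093. By family, none of the 22 Ighv5 genes, 11 Ighv2 genes and 8 Ighv3 genes had a summit within 500 bp in any list, while all members of Ighv9 (4), Ighv14 (4) and Ighv11 (2) had a peak in all 8 lists. The median share of unique words in and around the genes was 79.7% in Ighv5, 68.5% in Ighv2 and 94.7% in Ighv3, and 58.9% in Ighv9, 73.9% in Ighv14 and 61.9% in Ighv11. Of all 185 Igh V genes, 61 had a peak in every list and 83 in none, with median unique shares of 64.6% and 81.1%.

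In Igk the number of V genes with a peak grew with time. Of 160 Igk V genes, a peak within 500 bp was found for 51 and 49 at 0 h, 64 and 60 after 30 min, 71 and 65 after 1 h, and 68 and 75 after 2 h, so each treated library exceeded both 0 h libraries. By the same count the 185 Igh V genes gave 83 and 82 at 0 h and 77 and 80 after 2 h. In Igk, 14 V genes had a peak in both libraries at 2 h and in neither at 0 h, and none the reverse, while in Igh there were 4 and 5. Of the 14, 6 were Igkv4 genes (Igkv4-83, Igkv4-78, Igkv4-75, Igkv4-71, Igkv4-60 and Igkv4-53), and the others included Igkv12-89, Igkv12-46, Igkv6-14, Igkv6-13 and Igkv3-10. Of the 33 genes of Igkv4, the largest κ family here, 17 and 17 had a peak at 0 h and 26 and 28 after 2 h. None of the 18 Igkv13 genes had a peak in any list. Of the 3 λ V genes, Iglv3 had a peak in both libraries at 2 h and in no earlier one.

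The added Igk peaks were unevenly spread along the V part. In the bin chr6:69129838-69654617 the lists held 25 and 25 peaks at 0 h, 35 and 37 after 30 min, 52 and 44 after 1 h, and 55 and 52 after 2 h. The bin chr6:68080278-68605057, farther from the J genes, held 29 and 31 at 0 h and 33 and 32 after 2 h. The bin nearest the J genes, chr6:70179398-70704177, had 4 and 4 peaks at 0 h and 12 and 11 after 2 h.

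**Figure D2:**
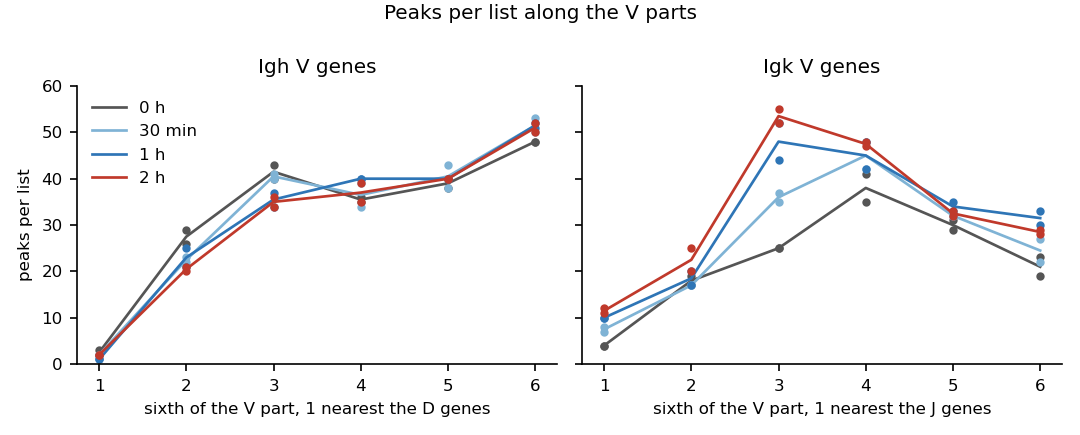
Peaks per list (y axis) in 6 equal bins of the V part of Igh (left, bin 1 nearest the D genes) and Igk (right, bin 1 nearest the J genes); points are libraries and lines the means of a time. In Igk bin 3 the 0 h libraries hold 25 and 25 peaks and the 2 h libraries 55 and 52.

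Regions were next called lost when a peak was listed in both untreated libraries but in neither of a later time, and gained in the reverse case. Gains in Igk outnumbered losses at each time. Of 295 Igk regions, 20 were gained and 8 lost after 30 min, 46 and 9 after 1 h, and 54 and 10 after 2 h. Over all 174718 regions the gained share was 4.31%, 7.44% and 9.29% at these times and the lost share 4.36%, 5.82% and 6.63%. The Igk shares at 2 h were thus 18.3% gained, above that background, and 3.39% lost, below it. Igh had more losses than gains. Of its 302 regions, 11 were gained and 15 lost after 30 min, 8 and 18 after 1 h, and 16 (5.3%) and 25 (8.28%) after 2 h. In Igl, 1, 1 and 6 of 23 regions were gained and none was lost. These counts rest on presence in lists and have no test. With 0 h replicate 2 left out, the Igh losses at 2 h came to 41 and the Igk losses to 20, where 13.1% of all regions were lost. With 0 h replicate 1, 2 h replicate 1 or 2 h replicate 2 left out the Igk losses came to 18, 17 and 14, where 11.5%, 8.69% and 8.19% of all regions were lost, and the Igh gains to 25, 31 and 29, where 13.4%, 16.3% and 18.2% were gained.

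**Figure D3:**
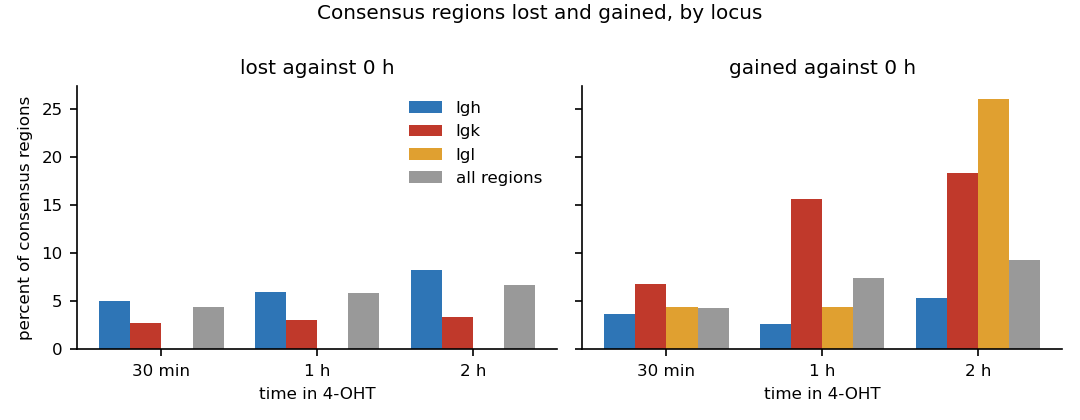
Percent of consensus regions (y axis, from 0) lost (left) and gained (right) at each time against 0 h (x axis) in Igh, Igk, Igl and over all regions. Igk gains reach 18.3% at 2 h against 9.29% over all regions, and Igl gains 26.1%, which is 6 of 23 regions.

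At all 3 times 12 Igk, 3 Igh and 1 Igl region were gained, and 12 Igh and 6 Igk regions were lost, beside 3844 gained and 5793 lost over all regions. The 3 gained regions with the highest mean percentile lay 104 to 122 bp upstream of Igkv4-80, Igkv4-79 and Igkv4-78, neighbouring κ V genes, and their octamers are shown above. The region 122 bp upstream of Igkv4-80 had no peak at 0 h, while a region 75 bp past the 3′ end of the same gene had one in all 8 lists. At the summit of the upstream region lay 14 and 8 fragments after 30 min, 27 and 23 after 1 h, and 36 and 33 after 2 h. Its percentile, the rank of the peak's fold over local background among all peaks of its own list on a scale of 0 to 100, was 69.8 and 42.7 after 30 min, 87.4 and 84 after 1 h, and 94.5 and 93.5 after 2 h. The window is a partial copy of its neighbours, with 44.7% unique words at Igkv4-80, 31.2% at Igkv4-79 and 52.4% at Igkv4-78. The 3 lost regions with the highest percentile lay at chr12:113937766-113937858 (73.6 and 42.2 at 0 h), chr12:115771977-115772103 (79.7 and 53.3) and chr6:68068113-68068281 (80.7 and 53.5), each with no peak in any treated library.

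Change in strength was tested in regions with a peak in all 8 lists, 228 of the 620 (128 in Igh, 91 in Igk and 9 in Igl). The folds were ranked within each library and turned into normal scores, on which 1 unit is 1 SD of the tested regions, and limma was fitted to all 47875 such regions with Benjamini-Hochberg adjustment. At 30 min no region of the loci or of the genome passed an adjusted p of 0.01 (0% lower and 0% higher of all tested), although at an unadjusted p below 0.05 the loci had 25 regions lower (11%) and 42 higher (18.4%), beside 9.94% and 9.51% of all tested regions. At 1 h, 5 regions in Igh were lower and 2 higher, and in Igk none was lower and 7 were higher, against 2.51% lower and 1.1% higher over all regions. At an unadjusted p below 0.05 Igk had 8 regions lower (8.79%) and 39 higher (42.9%) at 1 h, beside 15.5% and 14.9% of all tested regions.

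By 2 h Igh had regions that fell and regions that rose, and in Igk most called regions rose. In Igh 12 of 128 (9.38%) were lower and 8 (6.25%) higher, in Igk 2 of 91 (2.2%) and 10 (11%), and in Igl 1 and 1 of 9. Over all tested regions 4.71% were lower and 2.28% higher. The split depended on the scale. Log2 fragments over background gave 21 lower and 43 higher over the 3 loci in place of 15 and 19. Over all 47875 tested regions they gave 3427 lower and 3742 higher in place of 2256 and 1092. Ranks among all peaks of a list gave 8 lower and 9 higher in Igh, and 1304 lower and 1197 higher over all tested regions. The median difference from 0 h, in normal scores, was −0.12 in Igh, 0.51 in Igk and 0.92 in Igl, beside 0.06 over all regions. At 30 min it was already 0.39 in Igk and −0.03 in Igh. The Igk median is over regions that had a peak at 0 h, so regions absent from the 0 h lists do not enter it. Across the 3 loci, leaving out 0 h replicate 1, 0 h replicate 2, 2 h replicate 1 or 2 h replicate 2 left 2, 0, 2 and 2 regions lower and 0, 0, 1 and 0 higher at 2 h, since a single library then stands for that time. In regions with at least 90% unique words, 3 of 66 tested were lower and 4 higher.

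**Figure D4:**
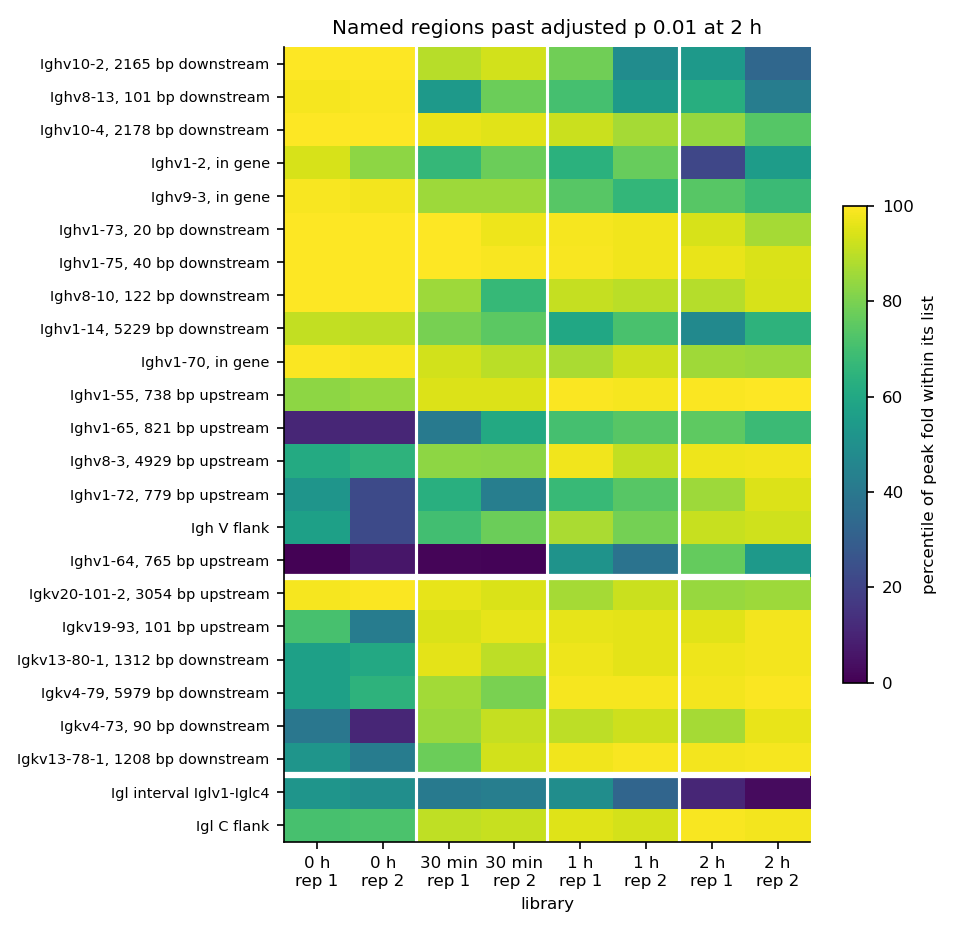
Percentile of the peak's fold within its own list (colour, 0 to 100) in each of the 8 libraries (x axis) for the 24 named regions past an adjusted p of 0.01 at 2 h, labelled by the nearest V gene or the part of the locus. The Ighv10-2 region goes from 99.96 and 99.92 at 0 h to 53.6 and 33.5 after 2 h, and the Igkv13-78-1 region from 52 and 42.2 to 98.2 and 98.5.

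The heavy chain regions that fell had mean percentiles at 0 h from 88.6 to 99.96. Over all tested Igh regions, the median percentile was 85.8 and 82.8 in the 0 h libraries and the upper quartile 98.3 and 96.6. Only regions with a peak in every list were tested. A weak region that fell could drop out of a later list and so leave the test. High values at 0 h are therefore partly built in by this rule. The largest fall among the tested Igh regions was at chr12:114493753-114494186, 2165 bp past the 3′ end of the pseudogene Ighv10-2, with percentiles of 99.96 and 99.92 at 0 h, 89.2 and 93.3 after 30 min, 78.3 and 48.6 after 1 h, and 53.6 and 33.5 after 2 h. Fragments at its summit went from 101 and 70 at 0 h to 10 and 7 after 2 h. The difference was −4.15 ± 0.37 (SE) in normal scores (limma adjusted p = 0.000958), and the groups do not overlap. A region in the same place past Ighv10-4, chr12:114544981-114545373, fell by 2.67 ± 0.27 (SE), from 99.9 and 99.87 to 84.1 and 73.6. These 2 regions have 69.4% and 37.6% unique words, and both Ighv10-1 and Ighv10-3, V genes of the same family, had a peak at 0 h and none at 2 h.

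Of the 12 Igh regions that fell, 9 had their summit in a V gene or within 500 bp past its 3′ end, where the recombination signal lies. None of the 12 held a full recombination signal, as searched below, which 3 of the 128 tested Igh regions held. Of the 128 tested Igh regions, 29 lay in a V gene and 33 in the 500 bp past one. Of the 12, 7 held the heptamer CACAGTG, which 55 of the 128 tested Igh regions (43%), 32.1% of all Igh regions and 7.85% of all regions hold (this search also finds the reverse complement). In the region at Ighv9-3, chr12:114140601-114140823, the percentile was 98.97 and 98.4 at 0 h and 74.2 and 68.4 after 2 h. At Ighv8-13, chr12:115764985-115765565, it was 98.4 and 99.3 at 0 h, 53.8 and 77.5 after 30 min, and 62.7 and 42.3 after 2 h, with only 7.65% unique words. The regions at Ighv1-73 and Ighv1-75 stayed among the strongest, at 94.1 and 86.5 and at 96.7 and 94.3 in the 2 h libraries, after 99.8 to 99.97 at 0 h. Others past the threshold lay in Ighv1-2 and Ighv1-70, 122 bp past Ighv8-10 and 5229 bp past Ighv1-14. The share of unique words in the 12 ran from 7.65% to 97.1%.

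Of the 5 strongest V part regions of Igh at 0 h, only the one at Ighv1-75, described above, passed the test. The other 4 lay 61 bp past the 3′ end of Ighv1-59 and 5700, 1539 and 5745 bp upstream of Ighv8-6, Ighv1-62-2 and Ighv8-13, and all kept percentiles of at least 99.91 in the 8 lists. Their differences at 2 h, in the same order, were 0.02 ± 0.25 (SE), −0.18 ± 0.25, −0.17 ± 0.25 and −0.11 ± 0.27. All 4 have between 11.8% and 20% unique words, so fragments from several copies may have been counted together in them, which was not tested.

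Regions with a CTCF word made up part of the Igh regions that rose. Of the 8, 4 held it, and no region that fell did. The 4 lay 738 to 821 bp upstream of Ighv1-55, Ighv1-64, Ighv1-65 and Ighv1-72, and their sequences are near copies, as shown above. Unique words made up 21.2% at Ighv1-55, 20% at Ighv1-64 and 22.9% at Ighv1-72. Fragments of those regions may have been assigned to another copy, which was not tested. At Ighv1-65, chr12:115533263-115533416 (87.1% unique words), the percentile was 10.6 and 10.6 at 0 h, 41 and 60.8 after 30 min, 70.7 and 74.2 after 1 h, and 75.2 and 68.4 after 2 h. That is a difference of 1.92 ± 0.33 (SE; limma adjusted p = 0.00447). The region at Ighv1-64 went from 0.741 and 5.96 to 76.5 and 53.6, and the one at Ighv1-55 from 83.1 and 84.6 to 99.5 and 99.7. Their 2 h values all exceed their 0 h values.

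A CTCF word was found in 30 of the 302 Igh regions (9.93%), in 3 of 295 in Igk and in 4.39% of all regions. Of these 30, 12 lay 500 to 1000 bp upstream of a V gene, all of the Ighv1 family, a distance picked after the values were seen. Of those 12, 8 were tested, and their differences at 2 h were all above 0, from 0.33 to 2.34 with a median of 1.76. The other 9 tested CTCF regions of Igh had a median of 0.58, and 7 of them were above 0. Outside the loci, 4303 tested regions with the word had a median of 0.34, with 1.49% higher and 0.558% lower, and 43344 without it a median of 0.03. The remaining Igh regions that rose included chr12:115008556-115008696 near Ighv8-3 (61.1 and 64.7 to 97.6 and 97.8) and chr12:116028210-116028356 in the flank beyond the last V gene (56.9 and 22.3 to 91.5 and 92.7), both with 100% unique words.

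Of the 10 κ regions that rose, 4 lay within 500 bp upstream of a V gene, where the promoters are. Of the 91 tested Igk regions, 22 of the V part lay within 500 bp upstream of a V gene. Of the 10, 6 lay within 283 kb at chr6:68978027-69261430, a stretch picked after the values were seen. This stretch holds 17 V genes, 10 of them Igkv4, and 15 of the tested regions. Lists held 19 and 19 peaks there at 0 h, 29 and 27 after 30 min, 35 and 30 after 1 h, and 35 and 34 after 2 h, and 14 of its 44 regions were gained at 2 h with none lost. The region near Igkv13-78-1, chr6:69052854-69053197, had percentiles of 52 and 42.2 at 0 h, 77.7 and 93.2 after 30 min, 97.7 and 98.8 after 1 h, and 98.2 and 98.5 after 2 h (difference 2.60 ± 0.35, SE; limma adjusted p = 0.00183). Its fragments at the summit were 10 and 7 at 0 h and 40 and 42 after 2 h. Near Igkv13-80-1 and Igkv4-79, chr6:69010740-69011054 and chr6:69036809-69037232 rose too, from 56.9 and 60.4 to 97.4 and 98.2 and from 56.9 and 64.7 to 98.2 and 99.5, each with higher values in all 6 treated libraries than at 0 h. These 3 windows have only 4.12% to 20% unique words, and their fragments cannot be assigned with certainty to these copies.

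A single called κ region that rose had fully unique sequence. It lay 101 bp upstream of Igkv19-93, chr6:68736735-68737063, with percentiles of 71 and 42.2 at 0 h, 94.2 and 96.1 after 30 min, 96.1 and 96 after 1 h, and 95.6 and 98.1 after 2 h. The difference at 2 h was 1.98 ± 0.33 (SE; limma adjusted p = 0.00397), and at 1 h the adjusted p was 0.00799. At Igkv4-73, the region with the recombination signal shown above went from 39.6 and 10.6 to 86.4 and 96.6, with 4.12% unique words. Of all 93 Igk regions with at least 90% unique words, 13 (14%) were gained at 2 h and 1 was lost, against 41 gained and 9 lost of 202 with fewer. The median difference of the tested ones was 0.48 in the first set and 0.63 in the second.

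Only 2 κ regions fell. At chr6:68471377-68471706, 3054 bp upstream of Igkv20-101-2 and fully unique, the percentile was 98.6 and 99.4 at 0 h, 96.1 and 94.2 after 30 min, 86.5 and 92 after 1 h, and 84.6 and 85.4 after 2 h (difference −1.62 ± 0.28, SE; limma adjusted p = 0.00472). The other strong κ V regions at 0 h lay at chr6:68219739-68220030, upstream of Igkv15-103, past Igkv15-101 and near Igkv8-34. The first 3 kept percentiles above 98.5 in all 8 lists. The Igkv8-34 region, chr6:70040871-70041283, was at 98 and 98.9 at 0 h and 90.6 and 95.8 after 2 h (difference −0.82 ± 0.28, SE), which missed the threshold.

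Position relative to the V gene separated the chains. In Igk, 62 of 287 V part regions (21.6%) had the summit in the 500 bp upstream of a V gene, 52 in the 500 bp past its 3′ end and 7 in the gene. In Igh only 19 of 288 (6.6%) were upstream, against 65 past the 3′ end and 46 in the gene. The octamer was present in 75.8% of the upstream Igk regions and 78.9% of the upstream Igh regions, against 26.1% of all Igk, 5.96% of all Igh and 2.2% of all 174718 regions. It lay a median of 87.5 bp before the start of the Igk V gene, on the strand opposite to the gene in all 47 cases, and 99.5 bp before the Igh V gene, on the gene's own strand in all 15.

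**Figure D5:**
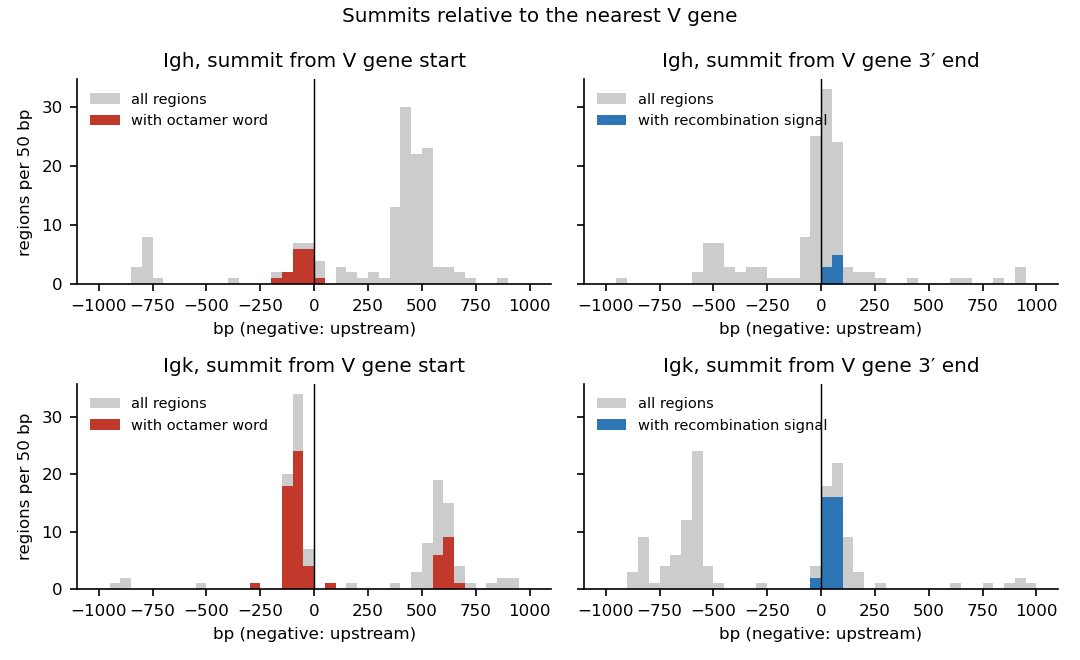
Number of consensus regions per 50 bp (y axis) by the distance of the summit (x axis, bp, negative upstream) from the start (left) and from the 3′ end (right) of the nearest V gene, in Igh (top) and Igk (bottom). Grey shows all regions, red those with an octamer and blue those with a recombination signal; Igk summits pile up just before the start, and Igh summits at the 3′ end.

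Recombination signals were searched as a heptamer CACAGTG, a spacer of 12 or 23 bp and a nonamer with at most 2 mismatches to ACAAAAACC, on both strands. They were found in 34 of 295 Igk regions (11.5%), 8 of 302 Igh regions (2.65%) and 0.06% of all regions. In the 31 Igk regions past a V gene that held one, the heptamer lay within 1 bp of the annotated end of the gene. The octamer and the gains in Igk went together to some degree. Among 77 Igk regions with an octamer, 19 were gained and 1 was lost at 2 h, against 35 and 9 of 218 without. Of the 30 tested regions with an octamer 7 rose and none fell, with a median difference of 0.96, and of the 61 without 3 rose and 2 fell, with a median of 0.34. Outside the loci, 2.9% of 725 tested regions with an octamer were higher at 2 h and 3.59% lower, and their median was 0.05. Over all 174718 regions, Igk included, the octamer was in 4.23% of those gained at 2 h and 1.3% of those lost, beside 2.2% of all. In Igk it was in 35.2% of the gained, 10% of the lost and 26.1% of all regions. In Igh just 2 tested regions held an octamer.

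The Ikaros word GGGAA was found in 25.2% of Igh, 26.8% of Igk and 39.1% of Igl regions and in 41.5% of all regions, with no test of these differences. By direction it was in 40% of the 25 Igh regions lost at 2 h and 25% of the 16 gained, in 50% of the 10 Igk regions lost and 16.7% of the 54 gained, and genome-wide in 60.4% of the lost and 27.6% of the gained. Of the 12 Igh regions that fell in strength, 16.7% held it, against 58.7% of all regions that fell. Of the 8 Igh regions that rose, 50% held it, against 25.5% of all regions that rose and 23.4% of the 128 tested Igh regions. In Igk both of the 2 regions that fell held it and 0 of the 10 that rose.

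In the J to C part of Igh the strong region with the octamer did not pass the threshold. At chr12:113427343-113427690 the percentile was 93 and 97.3 at 0 h, 93.2 and 93.8 after 30 min, 83 and 88.4 after 1 h, and 81.3 and 84.6 after 2 h (difference −0.996 ± 0.292, SE; limma adjusted p = 0.0389). Fragments at its summit were 86 and 76 at 0 h and 77 and 77 after 2 h. A weaker region of the same interval, chr12:113426745-113426957, had percentiles of 33.3 and 14.8 at 0 h and 73.3 and 65.6 after 2 h, with 23 and 12 fragments at 0 h and 65 and 50 after 2 h (difference 1.34 ± 0.30, SE; limma adjusted p = 0.0133). The differences of these neighbours had opposite signs at 2 h, and neither passed 0.01. The Ighm gene itself held a weak region in all 8 lists, chr12:113418818-113419394, at percentiles from 0.762 to 45. Of the heavy chain C genes the symbol rule takes only Ighm and Ighd, so the other C genes and the sequence beyond them were not described. In the 20 kb past Ighd, chr12:113402838-113403160 was at 86.2 and 69.4 at 0 h and 41 and 23.6 after 30 min. It was listed in only 1 library each at 1 h (6.82) and 2 h (18.7).

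The J to C interval of Igk held a single region, with the κB word shown above, which is found in 1 of 295 Igk regions and 0.15% of all regions. It was at chr6:70725729-70725937, within the gene model Gm30211, and listed in 7 libraries, at percentiles of 31.2 in 0 h replicate 1, 69.8 and 12 after 30 min, 41.7 and 41.3 after 1 h, and 53.6 and 60.4 after 2 h. In 0 h replicate 2 it was not listed. In the downstream flank, where the 3′ enhancers lie, 2 regions were found. The nearer, 8.73 kb past Igkc at chr6:70735598-70735835, had a peak in all lists, at 91.5 and 94.4 at 0 h, 96.8 and 95.8 after 30 min, 90.5 and 83.3 after 1 h, and 87 and 88.6 after 2 h (difference −0.47 ± 0.27, SE; limma adjusted p = 0.242). The farther, 17.2 kb past Igkc at chr6:70744023-70744246, was in no 0 h list and in all 6 later ones, at 72.8 and 49.8 after 30 min, 48.8 and 59.6 after 1 h, and 65.1 and 75.1 after 2 h. It is 1 of the 12 κ regions gained at all times, has 100% unique words and rests on 9 to 16 fragments.

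Between the V and J genes of Igk, 4 regions had a peak in all 8 lists, and none passed the test at any time. These were not in the rule for named regions and were picked after their values were seen. The highest of them, 13.1 kb before the first J gene at chr6:70709329-70709663, was at 91.1 and 80.2 at 0 h and 92.4 and 96.3 after 2 h. None of the 4 held the CTCF word as searched here.

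Of the 9 Igl regions tested, the one in the C flank had the largest difference from 0 h. At chr16:19052805-19053160, inside the gene model 2010309G21Rik, the percentile was 71 and 71.9 at 0 h, 90.3 and 91.4 after 30 min, 94.9 and 93.7 after 1 h, and 99.2 and 98.4 after 2 h. Fragments at its summit went from 15 and 13 to 59 and 50 (difference 1.93 ± 0.25, SE; limma adjusted p = 0.0017). The region is fully unique. Between Iglv1 and Iglc4, chr16:19172259-19172434 fell from 52 and 49.4 to 10.6 and 2.77 (difference −1.84 ± 0.29, SE; limma adjusted p = 0.00333), with 92.9% unique words. The region 4387 bp upstream of Iglv3, chr16:19245920-19246154, had percentiles of 73.6 and 64.7 at 0 h, 96.1 and 88.8 after 30 min, and 91.9 and 90 after 2 h, and did not pass 0.01 (limma adjusted p = 0.0467).

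Finally, 20 genes were chosen around recombination, the pre-B cell receptor and light chain expression. They included Rag1, Rag2, Dntt, Igll1, Vpreb1, Vpreb2, Cd79a, Cd79b, Pax5, Ebf1 and Tcf3. The others were Irf4, Irf8, Spib, Pou2af1, Foxo1, Ikzf1, Ikzf3, Sdc1 and Blk. Regions within 20 kb of their start sites were counted in the same fit. Of 211 such regions 80 were tested, and at 2 h 2 were lower and 4 higher, or 2.5% and 5%, beside 4.71% and 2.28% over all regions. The higher ones lay near Rag2 (2), a subunit of the recombinase, and near Ebf1 and Tcf3, B lineage transcription factors (1 each). The lower ones lay near Pax5 and Irf8 (1 each). Near Rag1, 2 regions were tested, neither passed, and their median difference was 0.72. The peak within 1 kb of the Rag1 start site was at 75.5 and 65.6 at 0 h and 36.7 and 36.5 after 2 h. After 30 min it was at 8.9 in replicate 2 and not listed in replicate 1, and after 1 h at 18.4 and 38.1. No region near Igll1, Vpreb1 or Vpreb2, the surrogate light chain genes, passed at 2 h, and the median difference of the 5 tested near Igll1, which are those near Vpreb1, was −0.81. The peak at the Vpreb1 start site could not enter the test, since it was listed at 69.7 and 53.7 at 0 h and 16.4 and 17.9 after 30 min and in no later library.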

How the data were processed

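Lists of accessible regions from 8 ATAC-seq libraries were analysed. Per the study's methods and processing notes, the authors ran nf-core/atacseq with BWA 0.7.17, kept fragments of at most 120 bp and called peaks per library with MACS2 2.1.2. The deposited lists give a fold over local background, −log10 p and −log10 q values (default q of 0.05) and a display score that was not used. The methods name a human build, but all peaks fit in GRCm38, which the labels name and which was used here. The authors' blacklist filter was not applied.

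Overlapping peaks were merged into consensus regions. Within each list the fold was ranked (percentile). Fragments at a summit and the background were worked back from the fold and −log10 p of each peak under a Poisson model. For the 47875 regions in all 8 lists, normal scores of the folds were the input of limma 3.58.1 (R 4.3.3; all 4 times, no covariate), with Benjamini-Hochberg adjusted p under 0.01. Shares of lists were compared by exact permutation. Words were searched on both strands in 200 bp around each summit, and the unique share counts 31-base words that occur once in GRCm38. Words were the octamer, the κB word, the heptamer, the recombination signal, the Ikaros word and a CTCF word. Sequences are from the RefSeq genome of that build. The fit was tested on simulated data. Named regions were those of the J to C parts and C flanks, the 5 strongest V regions per locus at 0 h, the regions past the threshold (beyond 12 in a direction at 2 h, the 12 with the largest shift), and the 3 regions lost and the 3 gained at all times with the highest percentiles. The members and lists were chosen with earlier results of these data known.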

Additional observations from a re-analysis of the deposited data

Results flagged for a closer look

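In 2 κ regions both 30 min libraries lay on one side of the untreated libraries and both 2 h libraries on the other. In the region upstream of Igkv15-103, chr6:68437251-68437549, both 30 min libraries lay above both 0 h libraries and both 2 h libraries below them, and the difference in mean percentile between 2 h and 30 min was −0.358. In the nearer region of the Igkc flank, chr6:70735598-70735835, the 30 min libraries lay above the untreated ones and the later libraries below them, with differences in mean percentile of −9.36 between 1 h and 30 min and −8.48 between 2 h and 30 min. Neither region passed at any time against 0 h (limma adjusted p of 0.685, 0.717 and 0.709 for the first at 30 min, 1 h and 2 h, and of 0.551, 0.249 and 0.242 for the second). Between 2 h and 30 min the limma adjusted p was 0.494 for the first and 0.178 for the second, and no region of the 47875 passed 0.05, with 9.12% lower and 7.81% higher at an unadjusted p below 0.05. The difference between 1 h and 30 min was not tested.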

How the results depend on the processing

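The higher Igk share of the list and the lower Igh share at 2 h kept their direction under every alternative run (differences of 0.0411 to 0.0576 and of −0.0416 to −0.0239 percentage points; 0.0411 to 0.0441 and −0.0416 to −0.0266 with a library left out). The Igl difference was −3.5e-05 when only peaks with −log10 q of at least 5 were kept. Counts of changed regions depended on the settings, and the cause was not tested. In the order Igh lower, Igh higher, Igk lower and Igk higher at 2 h, an adjusted p under 0.05 gave 20, 18, 5 and 26. With log2 fragments over background they were 16, 15, 4 and 23, and 20, 14, 4 and 18 once each library was centred on its median. A mean trend with a robust prior gave 18, 12, 4 and 19, and regions listed in at least 2 libraries 22, 6, 5 and 27. Ranking among all peaks of the list gave 8, 9, 1 and 9. Over all tested regions the main fit gave 2256 lower and 1092 higher, and an adjusted p under 0.05 gave 5300 and 3993. Log2 fragments gave 3427 and 3742 there, their centred form 4487 and 2601, and the trend and robust prior 3272 and 2256. Ranking among all peaks gave 1304 and 1197, and regions in at least 2 libraries 7933 and 2990 of 126504. Regions with at least 90% unique words, an alternative chosen after the data were seen, gave 1 and 2 of 28 and 1 and 1 of 33 tested, against 11 and 6 of 100 and 1 and 9 of 58 among the others.

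Over the 3 loci, in the order 30 min lower and higher, 1 h lower and higher, and 2 h lower and higher, an adjusted p under 0.05 gave 5, 3, 17, 39, 26 and 48. Log2 fragments gave 4, 2, 9, 28, 21 and 43, and their centred form 4, 0, 14, 26, 25 and 36. The trend and robust prior gave 5, 3, 15, 33, 23 and 34, and regions in at least 2 lists 1, 0, 15, 16, 27 and 34. Over all tested regions the 30 min and 1 h counts were 712, 336, 3915 and 2746 at an adjusted p under 0.05. With log2 fragments they were 610, 147, 2466 and 2031, and 622, 154, 3163 and 1662 once centred. The trend and robust prior gave 209, 157, 2121 and 1486 over all regions, and regions in at least 2 lists 695, 34, 5482 and 1680. Over the 3 loci, regions with at least 90% unique words gave 0, 0, 0, 1, 3 and 4. With 1 library left out the ranges were 0 to 0 and 0 to 0 at 30 min, 0 to 6 lower and 0 to 7 higher at 1 h, and 0 to 15 lower and 0 to 17 higher at 2 h. By locus at 2 h they were 0 to 11 lower and 0 to 9 higher in Igh, and 0 to 3 lower and 0 to 9 higher in Igk. The lowest values came from leaving out a 0 h or 2 h library, and the single library left was then assumed to vary like the other times.

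Igk losses at 2 h came to 4 with −log10 q of at least 5, where 7.44% of all regions were lost. Igh gains at 2 h came to 9 with all lists reduced to the shortest length, where 7.85% of all regions were gained. Regions with at least 90% unique words gave 8 lost and 4 gained in Igh and 1 lost and 13 gained in Igk. With a library left out, Igh losses ran from 32 to 41 and gains from 23 to 31, and Igk losses from 14 to 20 and gains from 58 to 79. Over all regions the lost share then ran from 8.19% to 13.1% and the gained share from 11.4% to 18.2%.

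Some strong V regions that passed no test changed sign. In normal scores or log2 units at 2 h, the Ighv1-59 region gave −0.0718 with centred log2 fragments and ran from −0.0478 to 0.0833 with a library left out. The Ighv1-62-2 region gave 0.0613 with log2 fragments and 0.0939 with ranks of −log10 p, and the Ighv8-13 upstream region ran from −0.2996 to 0.0737 with a library left out. The Igkv15-103 region gave 0.188 with log2 fragments, 0.0462 centred and 0.189 with ranks of −log10 p, and the Igkv15-101 region 0.037 with log2 fragments and 0.0512 with ranks of −log10 p.

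With the replicate number as a block, 10 Igh regions were lower and 7 higher at 2 h, and 2 and 7 in Igk. Over all tested regions the block gave 1905 lower and 860 higher. The deviations of same-numbered libraries correlated at 0.0172 to 0.0403, so the numbers were not taken to pair the libraries. Median log2 fragments over background went from 5.88 and 6.03 in the 0 h libraries to 6.15 and 6.05 in the 2 h libraries, a shift that the ranks and the centred form take out. The median tested region rested on 22 to 29.5 fragments in Igh, 15 to 33 in Igk and 9 to 28 in Igl, and the part of depth in these calls was not tested.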
